A study of Homo sapiens with 2 samples.

Results

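BCL6, its corepressors BCOR and NCOR1, and the B-cell regulators PRDM1 and XBP1 were followed across the arrays through every probe set whose annotation gives 1 gene symbol and that symbol is one of these 5. A probe set is a group of short probes on the array that reads 1 stretch of transcript. The rule found 12 probe sets among 41091 with 1 gene symbol, out of 54613 non-control probe sets in all. They belong to 4 of the 5 genes: 3 to BCL6, 4 to BCOR, 3 to PRDM1 and 2 to XBP1, and none was named NCOR1 in the annotation used, so NCOR1 was not analysed here. The groups are LN229 cells with a pSUPER.neo plasmid that makes miR-127-3p and LN229 cells with pSUPER.neo alone, both grown in DMEM with serum. LN229 is an established human glioblastoma line, and pSUPER.neo is an expression plasmid with neomycin resistance that the control cells carry too. Whether the cells were a pool or 1 clone is not given in the sources used here. Each group had a single array. Differences are therefore described by size, without replicates and without p-values.

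BCL6 is a transcriptional repressor with a BTB domain and zinc fingers. In germinal centre B cells it holds down genes of differentiation and of the DNA damage response, and it does so by recruiting corepressor proteins, among them BCOR and NCOR1, to its BTB domain. PRDM1, also called BLIMP-1, is a repressor that drives B cells to become plasma cells, and BCL6 and PRDM1 repress each other there. XBP1 acts after PRDM1: its mRNA is spliced by the endoplasmic reticulum sensor IRE1, and the resulting factor switches on genes that fold and export secreted proteins. Earlier work in other cells named BCL6, PRDM1 and XBP1 as targets of miR-127-3p.

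A microRNA finds its targets mainly through its seed, and the seed is therefore shown first. The mature sequences from both arms of the miR-127 hairpin lie on the plus strand of chromosome 14, miR-127-3p at chr14:100883035-100883056 and miR-127-5p at chr14:100883001-100883022 (RefSeq, GRCh38.p14). Capitals mark the seed, bases 2 to 8.
miR-127-3p: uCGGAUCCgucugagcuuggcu
miR-127-5p: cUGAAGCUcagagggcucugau
The arms have different seeds. An mRNA paired with bases 2 to 8 of miR-127-3p would hold GGAUCCG, and no transcript sequence was searched for it here.

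The start region of BCL6 is shown because it holds repeats of the sequence type that BCL6 itself binds. BCL6 zinc fingers recognise a sequence like that of STAT factors, with the core TTCNNNGAA, which reads the same on both strands. Capitals mark this core in 80 bases on the minus strand of chromosome 3, chr3:187745439-187745518 (RefSeq, GRCh38.p14), of which the last 30 lie after the start site.
BCL6: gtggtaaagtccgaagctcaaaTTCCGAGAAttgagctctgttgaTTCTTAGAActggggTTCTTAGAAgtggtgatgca
The 3 cores shown begin 28 and 5 bases before the start site and at base 11 after it. Another core begins at base 37 after it. Among 35116 windows of 250 bases before to 50 after a start site, 7.66% held at least 1 such core and 7 windows held 4 or more. All 5 genes had windows, 10 in all. The other BCL6 window held 0 cores, and outside BCL6 the core was found in 1 window of NCOR1.

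The start region of XBP1 is shown because it carries the element of endoplasmic reticulum stress. That element is CCAAT, 9 bases of any kind, and CCACG, searched on both strands, and capitals mark its ends. The 250 bases lie before the start site on the minus strand of chromosome 22, chr22:28800570-28800819 (RefSeq, GRCh38.p14).
XBP1: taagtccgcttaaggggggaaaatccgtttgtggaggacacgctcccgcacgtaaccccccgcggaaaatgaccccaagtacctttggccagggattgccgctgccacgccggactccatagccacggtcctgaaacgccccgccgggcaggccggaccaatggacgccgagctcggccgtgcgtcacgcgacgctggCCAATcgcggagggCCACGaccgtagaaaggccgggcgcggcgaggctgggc
The element begins 52 bases before the start site, and 27 of the 35116 windows (0.0769%) held it. A match describes these letters and does not show that a factor binds there.

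Signals have no unit. The median over non-control probe sets was 83.3 with miR-127-3p and 93.9 in control. A log2 ratio below is log2(signal + 1) with miR-127-3p minus the same in control, with the median over genes subtracted, so 1 stands for 2-fold. A probe set is called above the filter where its mean log2 value was above the median of all, a signal of about 83.0, and the brightest such probe set stands for a gene. The 2 brightest probe sets above the filter of each gene gave log2 ratios with a spread of 0.41 (SD per probe set, from 5974 genes). From the median absolute difference it was 0.30. This spread mixes error within the arrays with differences between the transcripts that the probe sets read. It holds no variation between cultures. Of 12 glial and mesenchymal glioma markers 10 were above the filter, as were 6 of 12 epithelial markers and 11985 of 19775 named genes. That count does not test the label of the cells. With miR-127-3p 2 of the 10 passed 2-fold on the lower side and 1 on the higher side. Over all genes above the filter the shares on these sides were 8.67% and 5.06%. The lower markers were SOX2, a neural stem cell factor, with 1656 against 3893 in control, and NES, nestin, with 893 against 1804. At the other NES probe set above the filter the log2 ratio was -0.46. SLC1A3, a glial glutamate transporter, gave 2689 with miR-127-3p and 73.9 in control, below the array median, and was at least 28.1-fold higher. VIM, vimentin, and FN1, fibronectin, gave 48866 and 30214 with miR-127-3p and 45584 and 33172 in control, while GFAP, an astrocyte filament, gave 14.9 and 34.2, below the median of both arrays. Epithelial markers were far brighter in control: the summed signal of the 12 markers was 7756 with miR-127-3p and 86688 in control, and 10 of 12 were brighter in control. KRT19, a keratin, was at 5.64 with miR-127-3p and 12674 in control, and EPCAM, an adhesion protein, at 30.2 and 9181. These markers moved with the same contrast as all results below, and their part in them was not tested. Fewer cells of a type and less RNA per cell cannot be told apart in such bulk samples.

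BCL6 was lower with miR-127-3p at each of its 3 probe sets, but by unequal amounts. The probe set 203140_at, the brightest, gave 4437 with miR-127-3p and 5075 in control, a log2 ratio of -0.21. The probe set 215990_s_at gave 481 with miR-127-3p and 577 in control, a log2 ratio of -0.27. Both differences are smaller than the spread of 0.41 between probe sets. The third, 228758_at, gave 465 with miR-127-3p and 1126 in control, which is 2.44-fold lower and a log2 ratio of -1.28. The control array was thus the brighter one at all 3, and only 228758_at passed 2-fold. The lowest and the highest ratio of BCL6 lay 1.08 apart. Among 2681 genes with 3 or more probe sets above the filter the median gap was 0.65, and 21.0% had a gap at least as wide as that of BCL6. All 3 or more probe sets lay below 0 in 24.8% of these genes. At its brightest probe set 35.4% of all genes had a ratio as low as BCL6 or lower.

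BCOR, the corepressor that ties BCL6 to a Polycomb-type complex, was lower with miR-127-3p at all 4 of its probe sets and by similar amounts. The probe set 223566_s_at gave 349 with miR-127-3p and 772 in control, which is 2.23-fold lower and a log2 ratio of -1.16. The probe set 219433_at gave 168 with miR-127-3p and 327 in control, 1.95-fold lower. The probe set 223915_at gave 199 with miR-127-3p and 372 in control, 1.88-fold lower. These 3 lay close to 2-fold, and only the first passed it. The dimmest, 223916_s_at, gave 126 with miR-127-3p and 207 in control, 1.65-fold lower. The 4 log2 ratios ran from -1.16 to -0.72, a gap of 0.43, and each was larger in size than the spread between probe sets. A gene with 3 or more probe sets all below 0 is common on these arrays, as given above. At the brightest probe set 6.76% of genes had a ratio as low as BCOR or lower. Its brightest and dimmest probe sets carry the suffix _s_, by which the maker marks probes shared by several transcripts.

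PRDM1, which BCL6 is known to repress, was higher with miR-127-3p. Its brightest probe set, 228964_at, gave 1055 with miR-127-3p and 586 in control, which is 1.78-fold higher and a log2 ratio of 0.84. The probe set 235668_at gave 148 with miR-127-3p and 99.1 in control, a log2 ratio of 0.56. Both ratios exceeded the spread of 0.41, but neither reached 2-fold. The third, 217192_s_at, gave 48.2 with miR-127-3p and 44.0 in control, below the median of both arrays, so its log2 ratio of 0.12 holds no usable order. Among 5974 genes with 2 or more probe sets above the filter, 30.6% had all of them above 0, as PRDM1 did. At the brightest probe set 7.57% of genes had a ratio as high as PRDM1 or higher. Of the members measured, PRDM1 alone had its brightest probe set on that side.

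XBP1 was lower with miR-127-3p at the 1 of its probe sets that was above the filter. The probe set 200670_at gave 1305 with miR-127-3p and 2014 in control, which is 1.56-fold lower and a log2 ratio of -0.64. The other, 242021_at, gave 82.8 with miR-127-3p and 58.0 in control, a log2 ratio of 0.49. Its signals were under the median of both arrays, so this ratio holds no usable order. With dim signals set to those medians, every such probe set gives the same -0.18. The direction for XBP1 thus rests on 1 probe set. Probe set signals do not separate the spliced from the unspliced XBP1 mRNA here. At 200670_at 16.3% of genes had a ratio as low as XBP1 or lower.

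**Figure D1:**
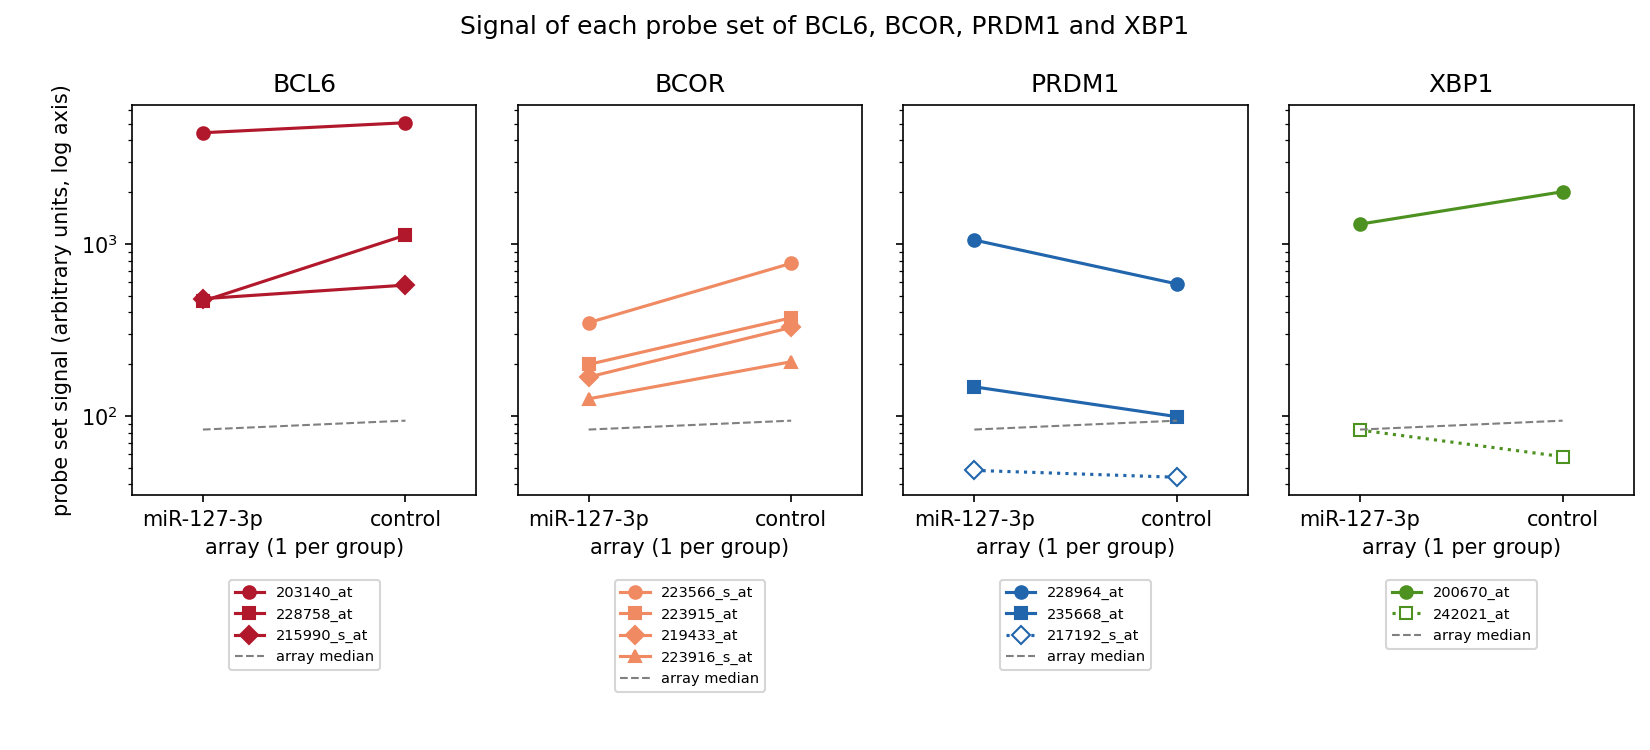
Signal of each probe set of BCL6, BCOR, PRDM1 and XBP1 (vertical log axis, arbitrary units) with miR-127-3p and in control, 1 array each, with lines joining the same probe set. Open symbols with dotted lines are the 2 probe sets below the signal filter, and the grey dashed line joins the array medians of 83.3 and 93.9. All BCL6 and BCOR lines are higher at control, and the 2 PRDM1 lines above the filter are higher at miR-127-3p.

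Over all 12 probe sets, 2 passed 2-fold on the lower side, 228758_at of BCL6 and 223566_s_at of BCOR, and 0 on the higher side. Of all probe sets with 1 gene symbol, dim ones included, 18.1% were at least 2-fold lower and 13.8% at least 2-fold higher. Both member probe sets past 2-fold were above the filter. For genes above it, at the brightest probe set, these shares were 8.67% and 5.06%. By that measure 1 of the 4 measured members, BCOR, was at least 2-fold lower and 0 were higher. So few members cannot place the count against either share. Of the 10 member probe sets above the filter, 8 lay below 0 and the 2 above 0 were those of PRDM1. The median log2 ratio of the 10 was -0.68, and it was 0.00 over all 22459 named probe sets above the filter. The 10 come from only 4 genes, with 4 probe sets from BCOR and 3 from BCL6, so these genes weigh most. The median of all 12 was -0.46, against -0.04 over all 41091. At the brightest probe set per gene the order ran from BCOR at -1.16 through XBP1 at -0.64 and BCL6 at -0.21 to PRDM1 at 0.84. XBP1 and BCL6, next to each other in that order, lay 0.43 apart. The spread of 0.41 is that of a single probe set, and a difference between 2 probe sets varies more. The order of XBP1 and BCL6 is therefore not settled. The central 80% of all genes lay between -0.91 and 0.73, and BCOR and PRDM1 were outside that range on opposite sides.

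**Figure D2:**
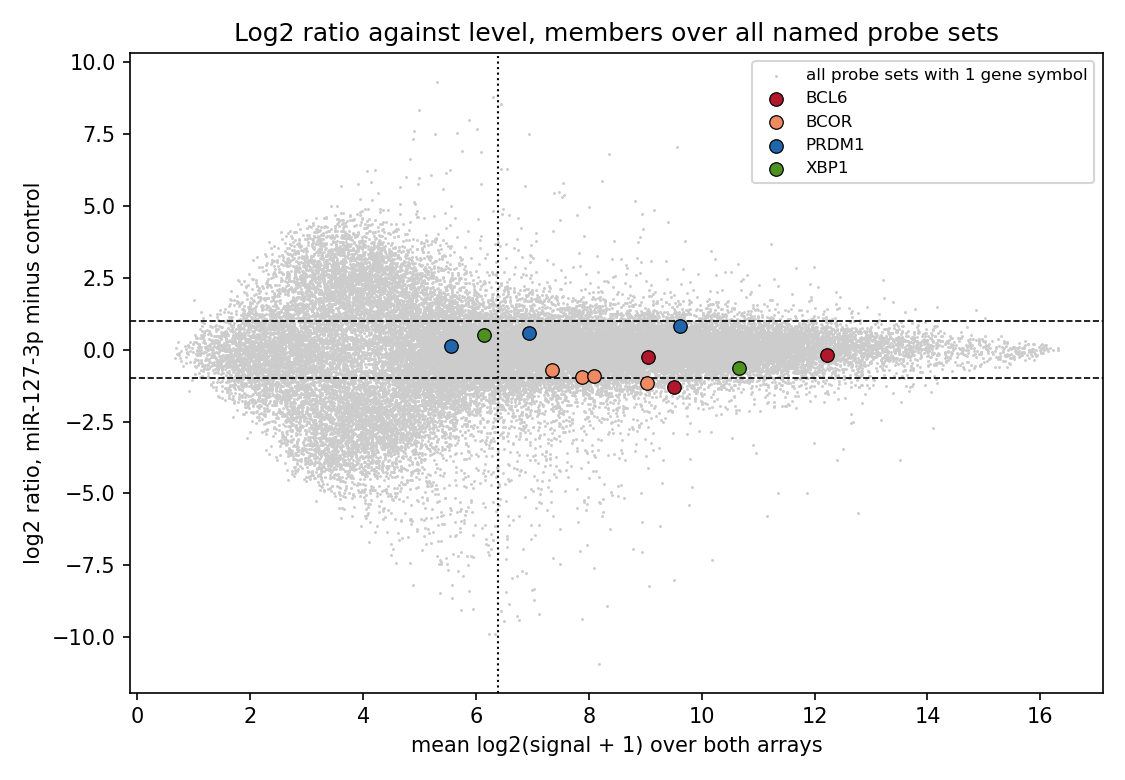
Log2 ratio, miR-127-3p minus control, against the mean log2(signal + 1) over both arrays for all 41091 probe sets with 1 gene symbol (grey), with the 12 probe sets of BCL6, BCOR, PRDM1 and XBP1 coloured. Dashed lines mark 2-fold and the dotted line the signal filter. The member probe sets lie within the grey cloud, with 2 of them past the lower dashed line.

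The signs held when the arrays were scaled or the pseudocount was set otherwise. Under 7 other settings of pseudocount, scaling and signal floor, BCL6 probe sets ranged from -1.31 to -0.12, and those of BCOR from -1.16 to -0.60. The PRDM1 probe sets above the filter ranged from 0.45 to 0.92, and 200670_at of XBP1 from -0.68 to -0.56. The sign of these 10 probe sets was the same under all 7. The 2 dim probe sets, 217192_s_at and 242021_at, lay below the median of both arrays. Setting such signals to the medians gives both the same -0.18 whatever their signals, so that setting cannot show their sign.

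**Figure D3:**
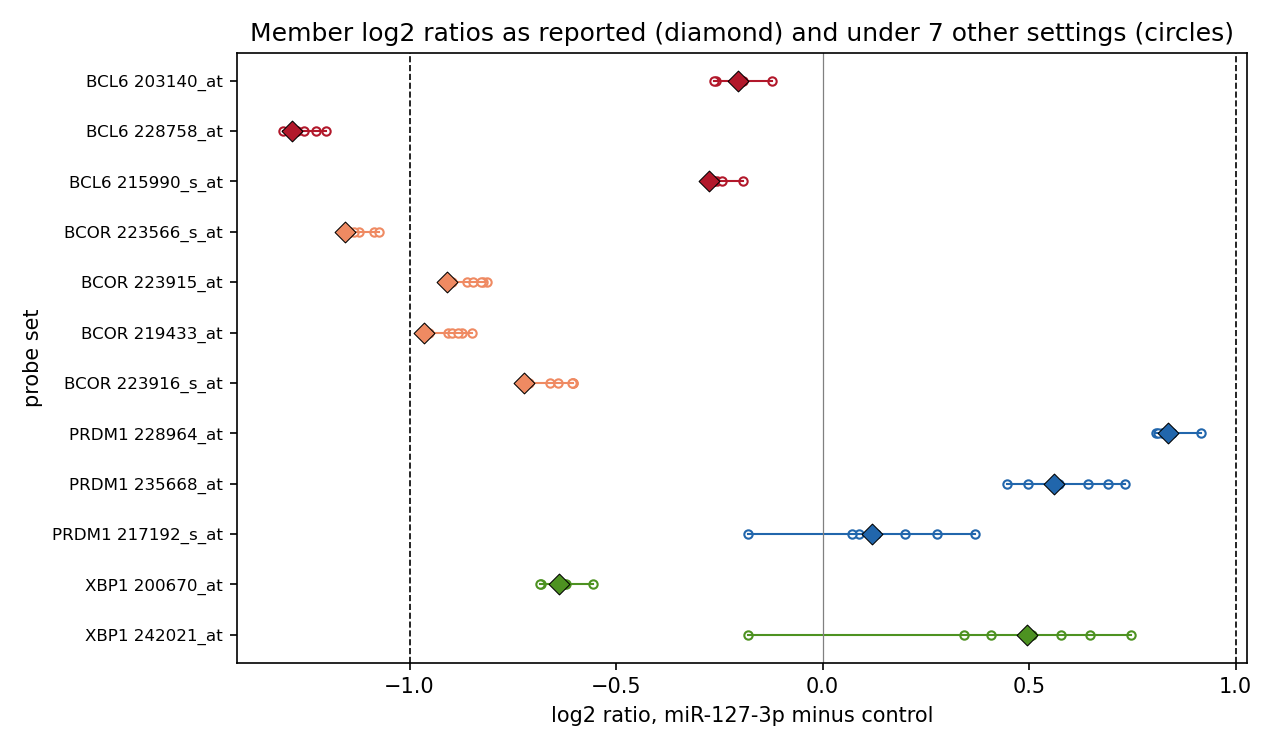
Log2 ratio, miR-127-3p minus control, of each of the 12 probe sets (rows) as reported (diamonds) and under 7 other settings of pseudocount, scaling and signal floor (open circles, joined by a line). Dashed lines mark 2-fold. Circles of BCL6 and BCOR stay below 0, and those of 228964_at and 235668_at of PRDM1 stay above 0.

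Genes around the members were described by lists and counts at the brightest probe set, beside 8.67% of all 11985 genes above the filter that were at least 2-fold lower and 5.06% that were at least 2-fold higher. Of 18 measured partners in BCL6 corepressor complexes, out of 20 listed, 1 was at least 2-fold lower and 0 were higher, and the median log2 ratio was -0.05, with 0.00 over all genes. TBL1XR1, a subunit of the complex built on NCOR1, gave 4151 with miR-127-3p and 8299 in control, and its 5 probe sets ran from -1.01 to -0.73. It was short of 2-fold with values as deposited or scaled to the 75th percentile. HDAC3, the deacetylase of that complex, was at 0.09, and GPS2, another subunit, was the highest at 0.87. In the complex of BCOR, its paralog BCORL1 was at -0.56 at its brightest probe set and 0.09 at another. PCGF1, the Polycomb ring finger protein that joins BCOR, was at 0.15. RYBP, another subunit, was at -0.90, with 3 probe sets from -0.90 to -0.60. The deubiquitinase USP7 was at -0.64 but at 0.54 at another probe set, RING1, a ubiquitin ligase, was at -0.19, KDM2B, a CpG-binding demethylase, at -0.10 and SKP1, an adaptor, at 0.23. Of these 7 genes around BCOR, grouped after their values were seen, 5 lay below 0 and 2 above it, and 0 passed 2-fold. Over all 18 corepressor genes 9 lay below 0 and 9 above it.

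Genes that BCL6 is known to repress in B cells were on both sides too. With miR-127-3p 1 of 15 measured genes, out of 24 listed, was at least 2-fold higher and 2 were lower, and 4 of 15 lay above 0, with a median of -0.28. PRDM1 itself, reported above, is 1 of these 4. CDKN1A, a cyclin-dependent kinase inhibitor, gave 4535 with miR-127-3p and 945 in control, 4.76-fold higher. MYC, a growth-promoting transcription factor, gave 578 with miR-127-3p and 6931 in control, 12.1-fold lower. CDKN1A and MYC each rest on 1 probe set above the filter. Without suffixed probe sets 0 of 9 genes of this list passed 2-fold. CISH, a suppressor of cytokine signalling, gave 71.6 with miR-127-3p, below the array median, and 145 in control, and against that median it was at least 1.74-fold lower. The count of 2 lower genes includes CISH, and it was 1 with either other pseudocount, quantile, loess or 75th percentile scaling, or the floor at the array median. MYC is also among the genes PRDM1 represses, of which 5 were measured. That list has 1 gene past 2-fold, MYC, and its median was -0.42. It includes PRDM1 and BCL6 themselves, and CIITA, the activator of MHC class II genes, was at -0.48, while ID3, an inhibitor of DNA binding, was at -0.42.

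XBP1 target genes, which serve protein folding, export and degradation in the endoplasmic reticulum, all stayed within 2-fold at their brightest probe set. Of 37 measured out of 40 listed, 20 lay below 0 and 17 above it, from -0.79 for KDELR3, a retrieval receptor, to 0.73 for EDEM2, which helps dispose of misfolded glycoproteins. The median was -0.02. At other probe sets above the filter KDELR3 reached -1.48 and SEC63 reached -1.19, both past 2-fold. HSPA5, the chaperone BiP, gave 30564 with miR-127-3p and 23986 in control, a log2 ratio of 0.34, but its other probe set was at 0.001. DNAJB9, its cochaperone and a classical XBP1 target, was at 0.30. The 11 sensors and effectors of the unfolded protein response also stayed within 2-fold at that probe set, with a median of 0.10. ERN1, which encodes the IRE1 nuclease that splices XBP1, gave 645 with miR-127-3p and 401 in control, a log2 ratio of 0.67, and its other probe set was at 1.36. PPP1R15A, a phosphatase subunit that restores translation, was at 0.75, with its other probe set at 1.45, and ATF4, a stress transcription factor, was at -0.42.

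Relatives of the members were mixed. Of 12 measured BTB zinc finger relatives of BCL6, 1 was at least 2-fold lower and 0 were higher, with a median of -0.08. ZBTB18, a repressor active in neural development, gave 2532 with miR-127-3p and 6024 in control, 2.40-fold lower, and ZBTB2 was the highest at 0.90. ZBTB17, the MIZ1 protein through which BCL6 reaches CDKN1A, was at -0.20. None of the 8 measured PRDM genes passed 2-fold, and their median was 0.30. Of these PRDM1 was the highest, and PRDM2 the lowest at -0.90, with 3 probe sets from -1.29 to -0.06.

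Of 16 measured regulators upstream of BCL6, PRDM1 and XBP1, 1 was at least 2-fold higher and 2 were lower, with a median of -0.19. STAT5A, a cytokine-activated factor known to lower BCL6 in lymphocytes, gave 244 with miR-127-3p and 112 in control, 2.16-fold higher. FOS, an AP-1 subunit, gave 203 with miR-127-3p and 422 in control, 2.09-fold lower. MEF2C, a factor of B cells, muscle and neurons, gave 850 with miR-127-3p and 1736 in control, 2.06-fold lower, with 3 probe sets from -1.27 to -0.44. These genes lie near the threshold: the counts were 2 higher and 0 lower with 75th percentile scaling, 2 higher and 1 lower after quantile scaling, 2 and 2 after loess or with a pseudocount of 16, and 1 and 1 with a pseudocount of 32. STAT3, which induces BCL6 and PRDM1 in lymphocytes, was at 0.14 at its brightest probe set, and its 4 probe sets ran up to 1.14.

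Markers of B cells and plasma cells were nearly all dim in these cultures. Of 11 named in the annotation, 9 were below the median of both arrays, among them MS4A1 and PAX5. CD79A, a B-cell receptor subunit, gave 86.4 with miR-127-3p and 92.4 in control, and SDC1, a proteoglycan of plasma cells and also of epithelia, gave 1273 with miR-127-3p and 543 in control. The summed signal of the 11 was 1461 with miR-127-3p and 864 in control, most of it from SDC1. IRF4, which acts with PRDM1 in plasma cells, gave 14.6 with miR-127-3p and 17.9 in control, below both medians.

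**Figure D4:**
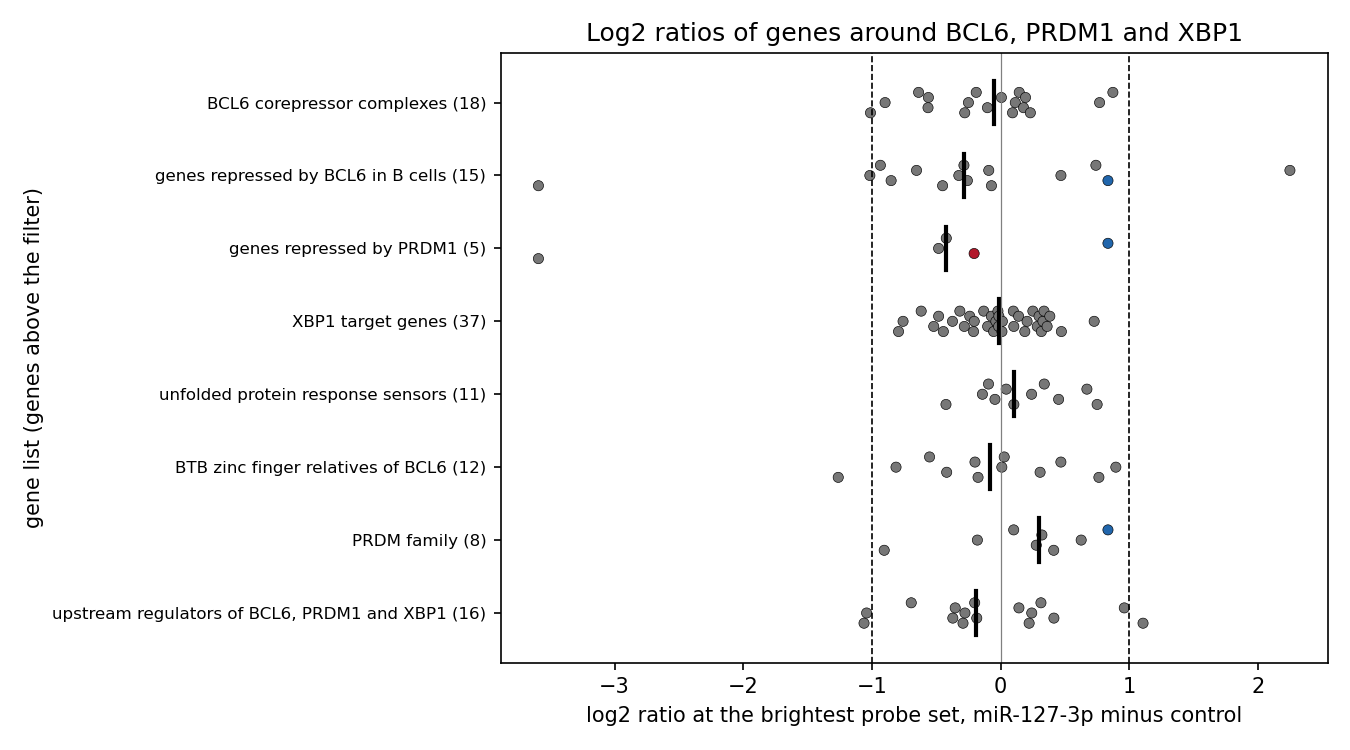
Log2 ratio at the brightest probe set, miR-127-3p minus control, of each gene above the filter in 8 lists around BCL6, PRDM1 and XBP1, with the number of genes in brackets and a black bar at the list median. Blue points are PRDM1 and the red point BCL6, and dashed lines mark 2-fold. MYC at -3.59 and CDKN1A at 2.25 lie farthest from 0, and all 37 XBP1 target genes lie between the dashed lines.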

How the data were processed

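RNA was extracted with Trizol and labelled as biotinylated cRNA with an Affymetrix 3′ kit, per the labels' protocols. The authors deposited linear signal intensities of probe sets, and the mean signal after trimming 2% at each end was 500.1 on both arrays. How probes were summarised and background was corrected is not given in the sources used here. The platform annotation gave 41091 of 54613 non-control probe sets 1 symbol, updated through Entrez identifiers to RefSeq (GRCh38.p14), and 1801 several. Signals became log2(signal + 1), centred on the median of 11985 genes (0.01). The pseudocount understates folds of dim genes. With 1 array per group no test was possible. Members and lists were chosen with earlier results of these data known. Named genes were all member probe sets, up to 3 genes per direction of each list past 2-fold, the extremes of lists with fewer than 2 such genes, and HDAC3, BCORL1, PCGF1, ERN1 and STAT3. RYBP, USP7, RING1, KDM2B, SKP1, HSPA5, DNAJB9, SEC63, ZBTB17, CIITA, ID3, IRF4 and the markers named were chosen after their values were seen. No gene was ranked by likeness to a member, since 2 arrays give 1 ratio. Alternatives were pseudocounts of 16 and 32, 4 other scalings, a floor, other filters, thresholds and probe set choices. The counting was tested on simulated arrays whose planted effects were all well past 2-fold, so effects near that threshold were not covered. Python 3.11.15, pandas 2.3.3, numpy 2.4.6, statsmodels 0.14.6 and matplotlib 3.10.9 were used.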

Additional observations from a re-analysis of the deposited data

How the results depend on the processing

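Counts past 2-fold of a few genes shift with single probe sets. Of the member probe sets, 7 passed a 1.5-fold threshold (6 lower, 1 higher), 0 passed 3-fold, and 1 of 8 without a cross-match suffix passed 2-fold. The log2 ratio of XBP1 was -0.036 with the mean of all its probe sets and no filter, and those of BCL6, BCOR and PRDM1 moved by less than the probe set spread under each of 10 alternatives. At 1.5-fold the counts were 5 for corepressor complexes, 8 for genes repressed by BCL6, 2 for those repressed by PRDM1, 4 for XBP1 targets, 2 for unfolded protein response sensors, 4 for BTB relatives, 3 for PRDM genes and 5 for upstream regulators. At 3-fold they were 0 for corepressor complexes, BTB relatives and upstream regulators. With no filter they were 0 for corepressor complexes, 5 for genes repressed by BCL6, 4 for those repressed by PRDM1, 5 for BTB relatives and 3 for PRDM genes. With the mean of all probe sets and no filter they were 2, 7, 4, 4 and 4 for these lists in the same order, 1 for sensors and 6 for upstream regulators. With the mean of probe sets above the filter they were 0 for corepressor complexes and 2 for sensors. Without suffixed probe sets they were 0 for corepressor complexes and for genes repressed by BCL6 or by PRDM1, and 1 for XBP1 targets. Corepressor complexes had 0 with values as deposited or scaled to the 75th percentile, and upstream regulators 1 with a filter at that percentile. No paired analysis was possible because there was 1 array per group. The number of arrays limits all values.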
